A study of Mus musculus with 5 samples.

Results

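The cells described here carry the annotation LOH, the thick ascending part of the loop of Henle, in adult mouse kidneys with and without Fame, a gene listed in the matrix as Ccdc198. They were taken as every cell whose cluster name in the annotation is LOH, without the separate cluster Juxt_ldl_LOH, which makes 1384 of 14197 cells. The kidneys came from FVB/Ant mice and were profiled by droplet-based single-cell RNA-seq, in which each captured RNA molecule is counted once by its molecular identifier (UMI). There were 3 knockout (KO) libraries, called KO female, KO male and KO mix, and 2 wild-type (WT) libraries, called WT female and WT mix, where a mix library holds cells of male and female mice pooled. The KO allele is a whole-body insertion of stop codons behind the start codon of Fame, so the RNA can still be made and counted and its level does not check the labels. The labels give no treatment for either genotype, and the sources used here do not give the number of mice behind a library, so that every p-value below measures the spread between these libraries. For the sexes, the claudin classes and the contrast with DCT cells, that is the spread of a difference taken within each library or pair. The 3 single-sex libraries carry one run label and both mixed libraries another, so the kind of library and the run cannot be told apart.

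The thick ascending limb takes up sodium, potassium and chloride from the urine through the cotransporter Slc12a1 and lets almost no water follow, which dilutes the urine and builds the salt gradient of the medulla. Potassium returned to the lumen through Kcnj1 keeps the lumen positive, and that voltage drives sodium, calcium and magnesium between the cells through tight junction channels made of claudins. The channel of Cldn10 favours sodium, and that of Cldn16 with Cldn19 favours calcium and magnesium. The segment also makes uromodulin (Umod), the most abundant protein of normal urine, and much of the epidermal growth factor (Egf) of the kidney.

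The KO female, KO male and KO mix libraries held 220, 191 and 442 LOH cells, against 249 and 282 in WT female and WT mix. Their summed UMIs were 1650429, 1412321 and 1148360 in the KO libraries and 1587935 and 616151 in the WT libraries, and these sums set the counting error of every level given here (CPM, the UMIs of a gene in the summed LOH cells of a library, scaled to the same total for all libraries). The median LOH cell held 2448.5 UMIs in KO mix and 2010 in WT mix, against 3881, 3505 and 3072 in KO female, KO male and WT female. The mitochondrial share of UMIs in the median LOH cell was 38.2% in KO mix and 40.0% in WT mix, against 15.2%, 19.6% and 16.2% in the single-sex libraries in the same order. Mixed libraries were thus shallower per cell and higher in mitochondrial RNA in both genotypes. The total behind CPM includes mitochondrial UMIs, so that CPM of all other genes is lowered where that share is high. The 13 mitochondrially encoded genes summed to 376112 and 383172 CPM in KO mix and WT mix. In KO female, KO male and WT female they summed to 157492, 200852 and 163112 CPM. Over the whole series 25 cell barcodes occurred in more than 1 library, which concerned 50 cells, 6 of them LOH cells, and no such pair had the same UMI total.

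The label held against its markers. A UMI of Umod was found in 98.8% of LOH cells, against 39.9% of all other cells. For Slc12a1 the share was 98.6% of LOH cells, against 16.4% of the rest, and for Egf it was 94.6%, against 22.2%. In droplets, RNA free in the suspension adds to such shares: Kap, a transcript of the proximal tubule and strongest in males, had a UMI in 100% of LOH cells of KO male, 98.6% of KO mix and 98.2% of WT mix, against 26.8% of KO female and 18.9% of WT female. Genes of neighbouring segments were rarely seen. Slc12a3, the cotransporter of the distal convoluted tubule (DCT), had a UMI in 3.61% of LOH cells, Aqp2, the water channel of collecting duct principal cells, in 2.46%, Nos1, which marks the macula densa, in 1.01%, and Slc14a2, the urea transporter of the thin descending limb, in 0.289%.

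Umod was the second most abundant LOH gene after the nuclear RNA Malat1 once mitochondrially encoded and ribosomal genes were set aside. Its level averaged 14797 ± 2442 CPM (SD, n = 5 libraries), 6.82 times the 2169 CPM of DCT cells, the next cell type. Among those behind it were Fxyd2 (7235 CPM), a subunit of the sodium pump, Slc12a1 (6171 CPM), the secreted phosphoprotein Spp1 (6060.4 CPM), Egf (5252 CPM) and the sodium pump subunit Atp1b1 (4476 CPM). Of 1099 genes with at least 100 CPM in LOH cells, 101 had their highest mean in LOH cells among the 18 cell types compared, and 25 exceeded the next type at least 2-fold. Because the annotation was itself made from these cells, these ratios describe the cluster and no test was made of them.

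The genes that set LOH cells furthest apart belonged to the known machinery of the segment. Slc12a1 stood at 21.9 times the level of the next type, myeloid cells (282 CPM). Tmem207, a small membrane protein, stood at 15.1 times (321 CPM in LOH cells) and Cldn16 at 14.3 times (120 CPM). Ptger3, a receptor for prostaglandin E, reached 314 CPM or 7.26 times its level in DCT cells. The sodium-favouring claudin Cldn10 averaged 1636 CPM, 4.81 times the 339.9 CPM of the next type, PT_1 proximal tubule cells. Slc5a3, which imports the osmolyte inositol, averaged 1154 CPM, 3.95 times the level in Juxt_ldl_LOH cells. Wfdc15b (4197 CPM, 4.85 times DCT), Erbb4, Cldn19, the sodium-proton exchanger Slc9a3 and the glucose transporter Slc5a1 were also among the 20 genes of highest ratio, which ended with Bckdhb at 2.25 times.

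**Figure D1:**
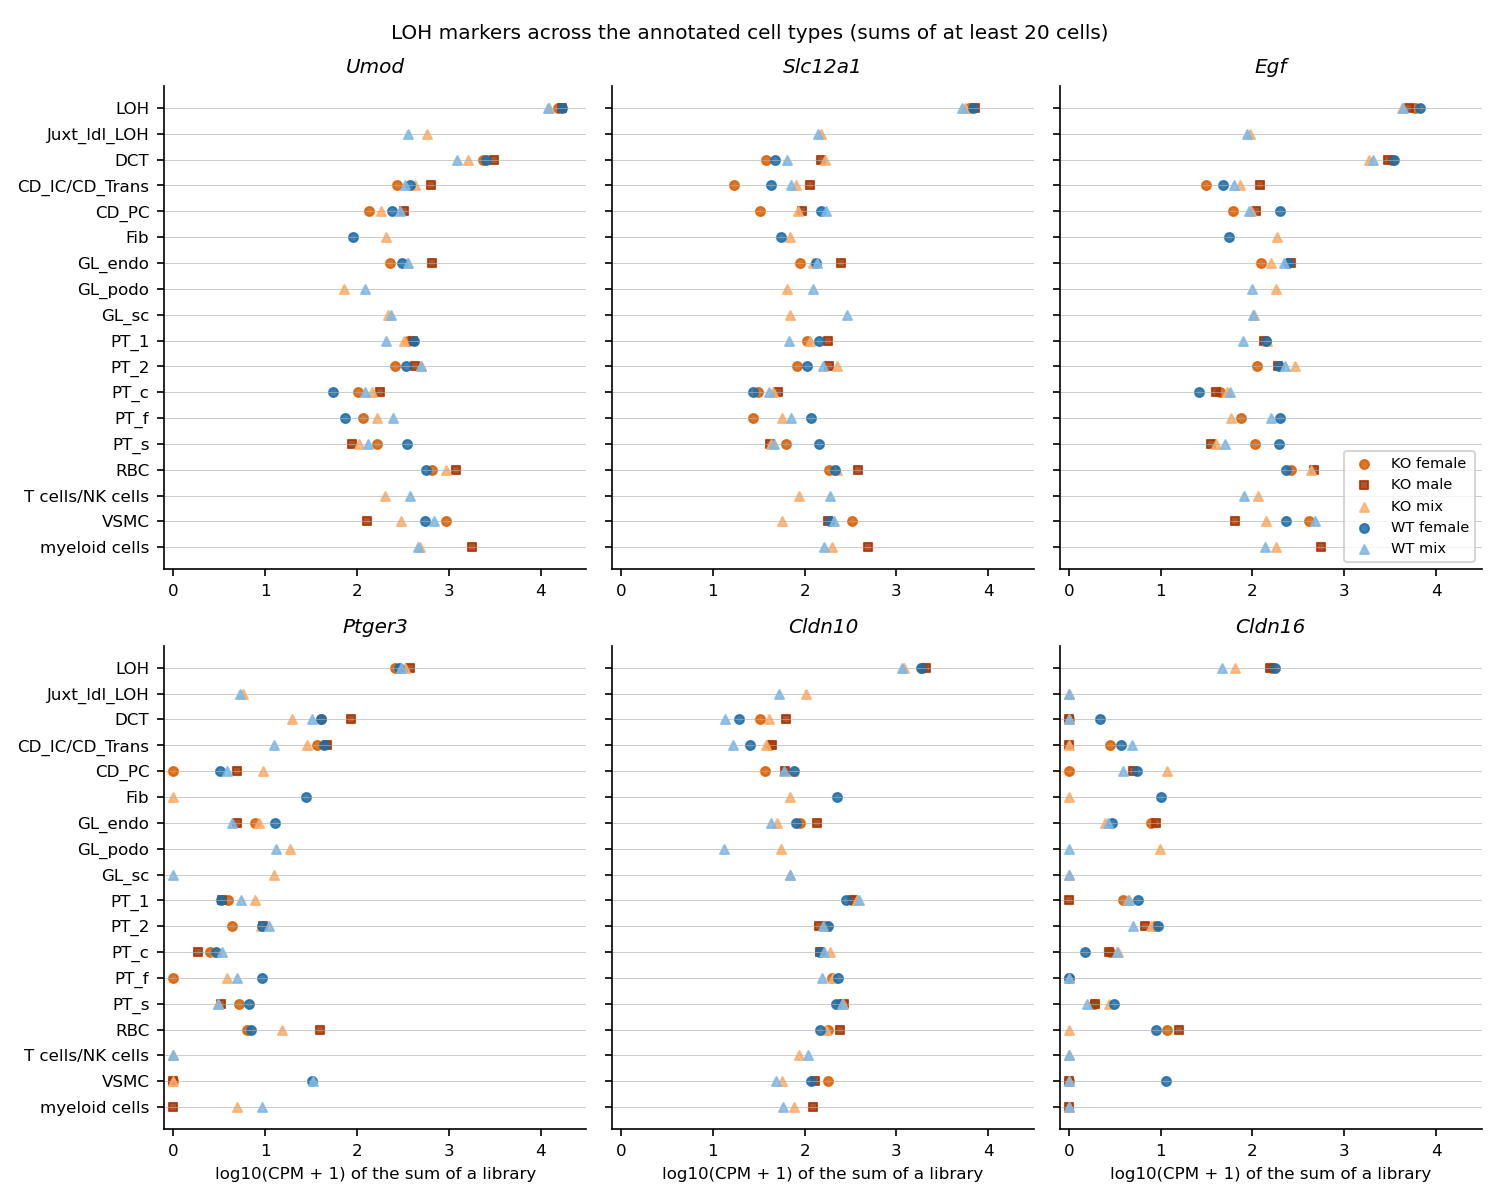
Levels of 6 LOH genes, as log10(CPM + 1) of the summed cells of a library, in each annotated cell type with at least 20 cells in that library, KO libraries in orange and WT libraries in blue. Each gene has its 5 highest points in the LOH row, and Egf comes closest to that level in DCT cells (mean 5252 CPM in LOH cells, against 2744 CPM in DCT cells).

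The sequence before the start of Umod, the leading gene of these cells, and of Cldn10, the claudin that divides them, is shown because both windows hold a CCAAT box, a common element of promoters. In the RefSeq promoters (GRCm38.p6), 16 of the 20 genes of highest ratio were matched, with 20 start sites, and 4 motifs were searched on both strands within 250 bases before each start. CCAAT or its reverse complement ATTGG was found before 7 of the 20 starts, those of Slc12a1, Umod, Cldn10, Bckdhb, Wfdc15b, Egfl6 and Gm47708, or 35% beside 33.8% of all 32851 promoters. TATAAA (reverse complement TTTATA) was found before 0 of them beside 12.4% of all promoters, the palindrome CACGTG before 2 beside 6.02%, and TGACCT (reverse complement AGGTCA) before 3 beside 14%. A match is a description of letters and not a bound site, and no match says only that the letters are not in the window. The genes lie at chr7:119462711-119479282 on the minus strand for Umod and at chr14:118787908-118875489 on the plus strand for Cldn10 in the annotation of the count files (mm10), and the windows printed 5′ to 3′ on the strand of the gene, with the CCAAT box in capitals, are chr7:119479263-119479512 for Umod and chr14:118787621-118787870 for the first of the Cldn10 starts. The other Cldn10 start did not hold the letters.
Umod: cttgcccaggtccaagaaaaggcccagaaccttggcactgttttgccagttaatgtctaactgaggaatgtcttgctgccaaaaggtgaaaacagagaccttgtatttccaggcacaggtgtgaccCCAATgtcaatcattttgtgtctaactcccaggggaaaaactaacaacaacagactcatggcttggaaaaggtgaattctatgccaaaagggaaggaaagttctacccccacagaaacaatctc
Cldn10: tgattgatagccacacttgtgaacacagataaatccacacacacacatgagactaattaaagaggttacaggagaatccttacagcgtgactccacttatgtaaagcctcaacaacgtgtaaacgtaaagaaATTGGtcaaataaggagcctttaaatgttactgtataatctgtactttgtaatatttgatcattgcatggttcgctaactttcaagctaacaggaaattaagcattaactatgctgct

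The main question of the study, put here to LOH cells, was what the loss of Fame changes. Fame itself is expressed in these cells: a UMI was found in 51.5% of them, against 27.4% of all other cells, and the mean of 266 CPM was equal within the printed digits to that of principal cells (CD_PC, 266 CPM), followed by DCT cells (239 CPM) and PT_1 cells (158 CPM). Ccdc198 had 279, 341 and 184 CPM in KO female, KO male and KO mix, against 327 and 201 CPM in WT female and WT mix (log2 fold change 0.02, SE 0.32). KO and WT libraries overlapped, and the level followed the kind of library.

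No gene changed between KO and WT LOH cells at an adjusted p of 0.05. Of 8952 genes tested with the quasi-likelihood test of edgeR, 0 passed (0.0%). Before adjustment 59 genes had a p under 0.05. DESeq2 likewise called 0 (8 before adjustment), and so did limma-voom (64). KO and WT values did not overlap for 1024 genes (11.4%). For the segment genes the difference between genotypes lay within the spread of the libraries. Umod was at 15562, 16918 and 12389 CPM in KO female, KO male and KO mix, against 17093 and 12021 CPM in WT female and WT mix, a log2 fold change of 0.04 with an SE of 0.37. Slc12a1 was at 6158, 7120.2 and 5543 CPM in the KO libraries, against 6829.6 and 5202 CPM in the WT libraries (log2 fold change 0.06, SE 0.33). In both genes the mixed library had the lowest CPM of its genotype, on a total that includes its larger mitochondrial share. Egf had a log2 fold change of -0.13 (SE 0.34), Cldn10 of 0.21 (SE 0.35), Cldn16 of 0.19 (SE 0.54), Kcnj1 of 0.08 (SE 0.42) and the calcium-sensing receptor Casr of -0.32 (SE 0.30).

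Every gene list gave a count of 0 in this comparison. Medians ran widest in small lists: -0.79 for 4 macula densa genes, -0.79 for 3 principal cell markers and 1.43 for 5 red blood cell markers. They were 0.62 for 3 endothelial markers, 0.85 for 2 leukocyte markers and 0.93 for 5 sex-linked genes. The 14 LOH markers had a median log2 fold change of 0.05, the 20 tested genes of salt transport 0.02, the 11 of calcium and magnesium passage -0.06, the 12 secreted proteins 0.06, the 17 transcription factors of nephron segments -0.10 and the 81 nuclear genes of the respiratory chain 0.09, beside a median of 0.00 over all genes. The 25 genes of iron handling, listed because the study followed iron in these mice, had a median of 0.02. Fth1, the heavy chain of ferritin, was at 2646, 2624 and 4211 CPM in the KO libraries and 2693 and 4057 CPM in the WT libraries (log2 fold change -0.10, SE 0.41). Slc25a39, the mitochondrial glutathione carrier, was at 100, 67.3 and 226 CPM in the KO libraries, against 80 and 258 CPM in the WT libraries (log2 fold change -0.36, SE 0.67). For both genes the high values were those of the mixed libraries of either genotype.

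**Figure D2:**
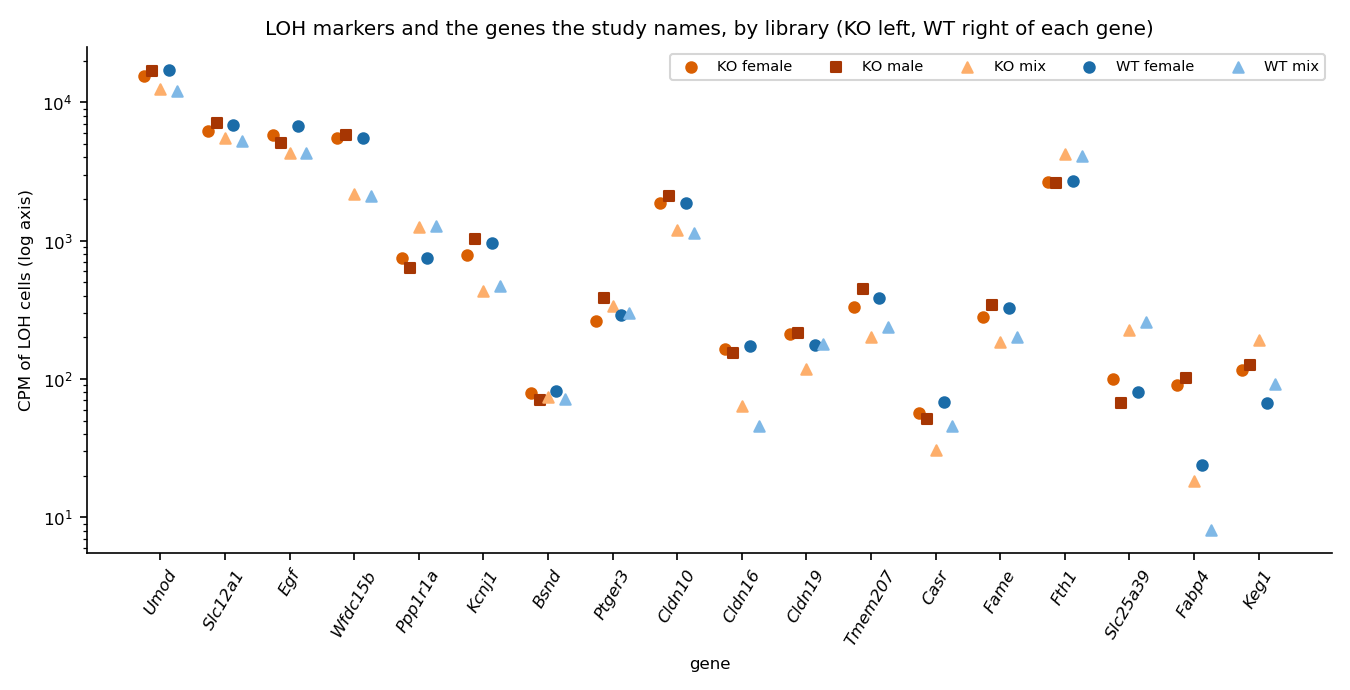
CPM of LOH cells on a log axis for segment markers, Fame and further genes, 1 point per library, with the 3 KO libraries to the left and the 2 WT libraries to the right within each gene. Triangles are the mixed libraries: for Wfdc15b, Kcnj1, Cldn16, Fth1 and Slc25a39 they lie apart from the single-sex libraries in both genotypes, while KO and WT points of 1 kind lie close.

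The genes of lowest p that were higher in KO did not pass the test. Tmem252 had 15.8, 17.0 and 11.3 CPM in the KO libraries, against 4.41 and 3.25 CPM in the WT libraries, a log2 fold change of 1.87 (SE 0.42, edgeR adjusted p = 0.9998). Acbd4, Snrnp48, Arsk and Polr1b followed, and Sh3bp5l, Paip2b, Pigm, Fam124a and Stard3nl headed the lower side, all with the same adjusted p. Their KO and WT values did not overlap, and the highest of these values was 57.0 CPM, of Snrnp48 in KO female.

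With the run as a block, which removes the gap between mixed and single-sex libraries, 2 genes rose in KO. Fabp4, a fatty acid binding protein of capillary endothelium, had 90.3, 101 and 18.3 CPM in KO female, KO male and KO mix, against 23.9 and 8.12 CPM in WT female and WT mix, with a blocked log2 fold change of 1.91 (SE 0.24, edgeR adjusted p = 0.000206). Each KO library exceeded the WT library of its own run, but KO mix lay under WT female. Keg1, a glycine N-acyltransferase-like protein of the kidney, had 116, 125 and 192 CPM in the KO libraries and 67.4 and 92.5 CPM in the WT libraries, with a blocked log2 fold change of 0.95 (SE 0.15, edgeR adjusted p = 0.00549). Both had their highest mean in other cell types: Fabp4 averaged 48.4 CPM in LOH cells and 7662.5 CPM in glomerular endothelium (GL_endo), and Keg1 averaged 119 CPM in LOH cells and 3058 CPM in PT_1 cells. The 7 endothelial markers, of which Fabp4 is 1, summed to 132, 129 and 40.9 CPM in KO LOH cells, against 51.6 and 47.1 CPM in WT LOH cells. Fabp4 itself made 90.3, 101 and 18.3 CPM of the KO sums and 23.9 and 8.12 CPM of the WT sums. The part of endothelial RNA in the result was not tested. DESeq2 with the same block called 0 genes. Leaving out libraries in turn gave 0 calls without KO female, 16 without KO male, 5 without KO mix, 2 without WT female and 1 without WT mix. Fabp4 was lost without KO female (edgeR adjusted p = 0.398) and without WT female (0.999), and Keg1 was lost without any 1 of the libraries other than KO male (edgeR adjusted p of 0.116 to 0.398). With the sex composition as the block 13 genes passed, among them Hbb-bs, Hba-a1 and Hbb-bt, which encode hemoglobin chains.

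The share of LOH cells among all cells did not differ beyond the spread of the libraries. KO female had 7.47% (exact 95% binomial interval 6.55 to 8.48), KO male 10.6% (9.26 to 12.2) and KO mix 12.4% (11.3 to 13.5), against 9.81% (8.68 to 11.0) for WT female and 8.41% (7.49 to 9.40) for WT mix. These intervals cover counting error only. The mean was 10.2 ± 2.49% in KO and 9.11 ± 0.992% in WT (SD, n = 3 and 2), a difference of 1.06 points (two-sided exact permutation p = 0.7, where 0.1 is the smallest p of this design). The KO libraries held both the lowest and the highest share. In edgeR on the cell numbers of all 19 types, LOH had a log2 fold change of 0.16 (SE 0.40, adjusted p = 0.892).

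The effect of KO was next set against that in DCT cells, the neighbouring segment, by the difference of both effects in the same libraries. Of 8533 genes, 0 passed in edgeR (0.0%), and 280 had a p under 0.05 before adjustment. DESeq2 (24 before adjustment) and limma-voom (318) called 0. Cldn10 was among the genes of lowest p, with 1879.5, 2111 and 1201 CPM in KO LOH cells and 1855 and 1136 CPM in WT LOH cells, while DCT cells had 31.4, 61.1 and 39.9 CPM in KO and 18.2 and 12.6 CPM in WT (difference of log2 fold changes -1.24, SE 0.36, edgeR adjusted p = 0.9998). The LOH values of the genotypes overlapped, and the DCT values, low in both, did not.

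The comparison with the most calls was that of mixed with single-sex libraries. Of 8952 genes, 2155 (24.1%) passed the test of edgeR with genotype as a covariate, 1043 higher (11.7%) and 1112 lower (12.4%) in the mixed libraries, and for 52.6% of genes the values of the mixed and the single-sex libraries did not overlap. Median depth and mitochondrial share differed the same way (2448.5 and 2010 UMIs and 38.2% and 40.0% in mixed libraries, against 3072 to 3881 UMIs and 15.2% to 19.6% in single-sex libraries), and run and kind of library cannot be told apart. With only the cells of at most 25% mitochondrial UMIs, which left 55 and 32 cells in KO mix and WT mix against 138 to 211 in the single-sex libraries, 735 genes passed, 29.9% of them higher, against 48.4% of the 2155, and the median of all genes stood at -0.12. DESeq2 on all cells called 849, 37.8% of them higher. Leaving out KO mix gave 1078 calls, WT mix 1311 and WT female 1329.

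By number of calls on the higher side, immediate early and heat shock genes came first among the lists. A larger share rose of the mitochondrially encoded genes (10 of 13), the osmotic response genes (6 of 10) and the principal cell markers (3 of 3). Of 40 immediate early and heat shock genes tested, 23 rose and 2 fell in the mixed libraries, beside 11.7% higher and 12.4% lower over all genes. Their median log2 fold change was 1.33, beside 0.01 over all genes. Fos, a subunit of the AP-1 transcription factor, had 543 and 607 CPM in KO mix and WT mix, against 144, 158 and 164 CPM in KO female, KO male and WT female (log2 fold change 2.01, SE 0.11, edgeR adjusted p = 3.4e-13). Its partner Junb had 237 and 282 CPM in the mixed libraries, against 49.1, 43.2 and 50.4 CPM in the single-sex libraries (log2 fold change 2.55, SE 0.14). Neither gene overlapped between the kinds of library. Egr1 (2.80, SE 0.18), Atf3 (2.74) and the nuclear receptor Nr4a1 (4.11, SE 0.41) rose as log2 fold changes, as did the heat shock genes Hspa1a (1.54), Hspa1b (2.24) and Hspb1 (1.72). The mitochondrial chaperonins Hspe1 (-1.17) and Hspd1 (-0.49) were those that fell. In the cells of at most 25% mitochondrial UMIs, 20 of 38 rose and 1 fell (median 1.35).

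The segment markers were mostly lower in the mixed libraries. Of 14, 8 fell and 1 rose (median -0.33), beside 12.4% lower and 11.7% higher over all genes. Cldn16 had 63.6 and 45.4 CPM in KO mix and WT mix, against 164, 154 and 174 CPM in KO female, KO male and WT female (log2 fold change -1.40, SE 0.17, edgeR adjusted p = 3.49e-07). Wfdc15b fell by 1.24 (SE 0.10), Kcnj1 by 0.91 (SE 0.12), Cldn10 by 0.58 (SE 0.10), Egf by 0.33 (SE 0.10) and Umod by 0.30 (SE 0.10) on the log2 scale, while Slc12a1 did not pass (-0.18, SE 0.10, edgeR adjusted p = 0.222). Ppp1r1a, an inhibitor of protein phosphatase 1, had 1250.5 and 1276 CPM in the mixed libraries, against 746, 635 and 751 CPM in the single-sex libraries, and was the marker that rose (log2 fold change 0.96, SE 0.10). Cldn10 and Umod, whose upstream windows are printed above, were thus among the genes that fell, but the call of Umod was lost under DESeq2, at a threshold of 0.01 and without KO mix, WT female or WT mix, and that of Egf under the same settings and without KO female. The count of markers that fell was 5 under DESeq2 and 4 to 8 with 1 library left out.

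Of 12 secreted proteins, 8 fell and 1 rose (median -0.36), beside 12.4% lower and 11.7% higher over all genes. Spp1, or osteopontin, had 2134 and 1808 CPM in KO mix and WT mix, against 8982, 7107 and 10271 CPM in KO female, KO male and WT female (log2 fold change -2.02, SE 0.14, edgeR adjusted p = 1.13e-07). Kallikrein (Klk1, -1.37) and Wfdc2 (-1.17) fell too, and Igfbp5 rose (1.10). Of 11 genes of paracellular calcium and magnesium passage 6 fell and 0 rose (median -0.55). Salt transport lay near the shares over all genes (11.7% higher and 12.4% lower): 3 of 20 rose, among them the bicarbonate carrier Slc4a4 (1.24) and the kinase Wnk4 (0.73), and 4 fell, among them the kinase Wnk1 (-1.25), with a median of 0.02. Of 17 nephron transcription factors 9 rose, among them Pax2 (2.69), Pax8 (1.13, but -0.25 in the cells of at most 25% mitochondrial UMIs) and Irx1 (0.78), and 2 fell, Tfcp2l1 (-0.82) and Mecom (-0.58). Of 10 genes of the osmotic response 6 rose and 0 fell, among them the taurine carrier Slc6a6 (1.92) and the betaine carrier Slc6a12 (1.88).

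Nuclear and mitochondrial genes of the respiratory chain differed in direction. Over all genes 11.7% were called higher and 12.4% lower. Of 81 nuclear genes 40 fell and 14 rose (median -0.29), with Ndufa5 (-1.91) and Cycs (-1.65) at one end and Uqcrc1 (1.21) at the other. Of 13 mitochondrially encoded genes 10 rose and 1 fell (median 1.09), with mt-Nd3 at 2.65 and mt-Atp8 at -2.06. In the cells of at most 25% mitochondrial UMIs the mitochondrially encoded genes gave 3 higher and 4 lower (median -0.13), whereas the nuclear genes gave 4 higher and 38 lower (median -0.46). That filter acts on the measure itself. Ribosomal protein genes gave 17 higher and 36 lower of 77 (median -0.22).

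Of the genes of iron handling 8 of 25 rose and 2 fell, beside 11.7% higher and 12.4% lower over all genes. Fth1 rose (log2 fold change 0.78, SE 0.09), as did Slc25a39 (1.67, SE 0.15), the iron-sulfur scaffold Iscu (1.62, SE 0.13) and the metal importer Slc39a8 (1.69), and Lcn2 (-1.18) and Hmox2 (-0.75) fell. Fame fell (-0.59, SE 0.13, edgeR adjusted p = 0.000857).

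RNA of other cell types moved with the same split. The 12 proximal tubule markers summed to 7208 and 7769 CPM in KO mix and WT mix, against 1759, 3949 and 1178 CPM in KO female, KO male and WT female. Kap, strongest in males, is 1 of the 12, so that the sum also follows the sex of the mice. In LOH cells with Cldn10 and without Cldn16, Kap held 3744 and 4746 CPM in KO mix and WT mix and 3776 CPM in KO male. In KO female and WT female it held 73.7 and 47.9 CPM there. Of the 12, 5 rose, beside 11.7% of all genes, with none at 0 in any library. The 5 red blood cell markers summed to 18.3 and 4.87 CPM in the mixed libraries, against 10159, 5163 and 3651 CPM in the single-sex libraries. Of the 5, 4 fell, beside 12.4% of all genes. Aqp2 of principal cells had 16.5 and 51.9 CPM in KO mix and WT mix, against 1.21, 2.12 and 0.63 CPM in the single-sex libraries. The part of these in the lists above was not tested. Genes with 0 counts in both mixed libraries were Hdac8, at least 5.06-fold lower, Mcm2, at least 4.43-fold lower, and Alas2, at least 3.79-fold lower, against a floor of 3 counts over the group.

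**Figure D3:**
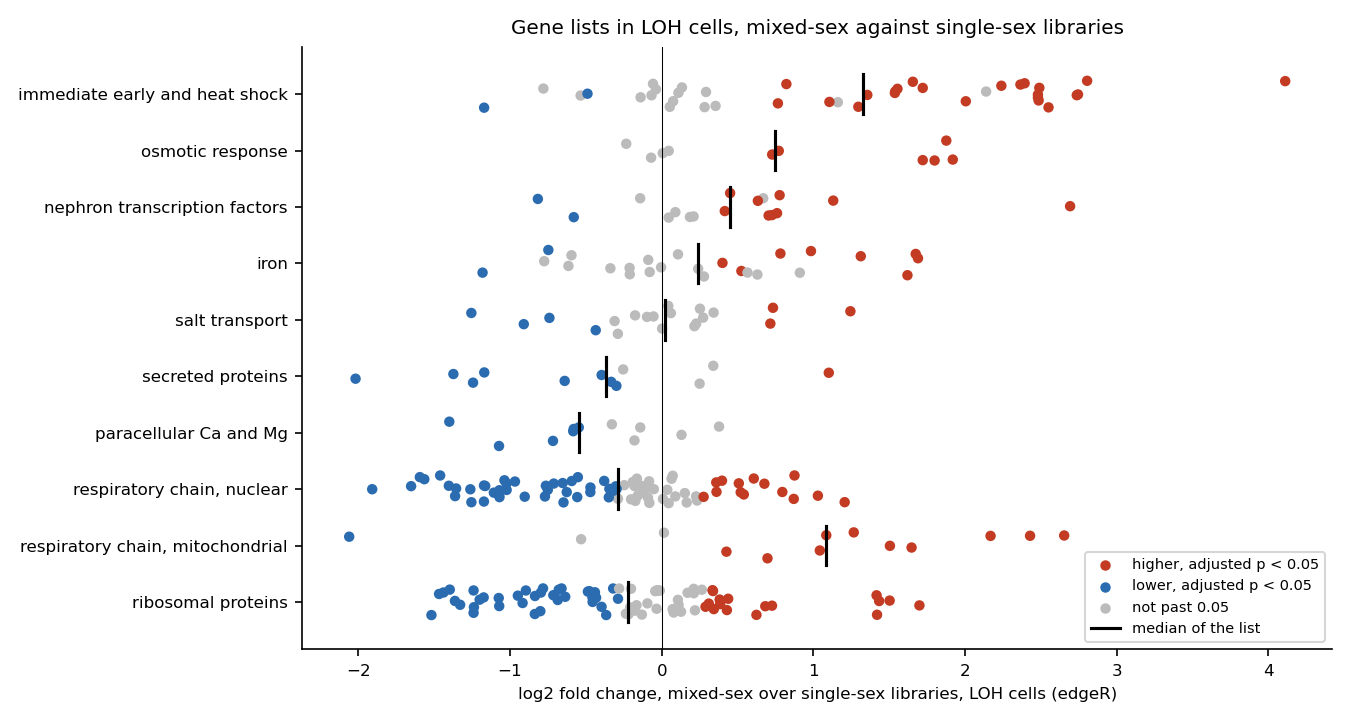
Log2 fold change of each tested gene of 10 lists in LOH cells, mixed over single-sex libraries, with red for higher and blue for lower genes of adjusted p under 0.05 in edgeR, grey for the others and a bar at the median of the list. The immediate early and heat shock list is centred at 1.33, the mitochondrially encoded respiratory chain at 1.09 and the nuclear one at -0.29.

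Male and female LOH cells were compared within KO and within the mixed libraries, where a cell was called male by a UMI of a Y-linked gene without Xist and female by Xist without a Y-linked gene. The 3 pairs of sums held 191 male and 220 female cells in the single-sex KO libraries, 39 and 197 in KO mix and 41 and 51 in WT mix. Of 4759 genes, 13 passed in edgeR (0.273%), 3 higher (0.063%) and 10 lower (0.21%) in male cells, and 9 of them went the same way in every pair, as did 23.9% of all genes. None was an LOH marker, for which the median log2 fold change was 0.07 beside -0.02 over all genes. Umod was at 16918, 12047 and 15329 CPM in male cells, against 15562, 11734 and 10689 CPM in female cells (log2 fold change 0.18, SE 0.14, edgeR adjusted p = 0.999).

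Prps2, which makes the ribose phosphate for nucleotide synthesis, was higher in male cells of each pair, at 370.3, 177 and 246 CPM, against 178, 147 and 107 CPM in female cells (log2 fold change 0.87, SE 0.18, edgeR adjusted p = 0.00698). Tfrc, the transferrin receptor that brings iron into cells, was at 99.8, 88.6 and 107 CPM in male cells and 43.0, 35.4 and 73.9 CPM in female cells (log2 fold change 1.12, SE 0.25, edgeR adjusted p = 0.0193). Male and female values of Tfrc did not overlap. Ier3 was the other gene that rose (0.93, SE 0.22). Among the genes that fell were Spp2 (-2.93), Slc22a8 (-2.62), Rdh16f2 (-2.31), Nox4 (-1.40) and Miox (-1.06), each of which was higher in proximal tubule cells than in LOH cells, Miox at 6625 CPM in PT_1 against 222 CPM in LOH cells, and their share from free RNA was not tested. Gadd45g fell too (-0.71, SE 0.16, edgeR adjusted p = 0.0184), at 368, 230 and 310 CPM in male cells, against 742, 274 and 312 CPM in female cells. Hba-a1 and Hbb-bs fell without going the same way in each pair. In the single-sex KO pair the sexes are 2 libraries, so that sex and library cannot be told apart there. In the mixed libraries alone 1385 genes kept enough counts to be tested and 0 passed. Of the 13 genes, 6 were tested there, among them Prps2 (0.52, edgeR adjusted p = 0.999) and Tfrc (0.89, 0.999), and 7 were not, among them Spp2, Slc22a8, Rdh16f2 and Nox4. Of the 1385 genes, 61 had an unadjusted p under 0.05, and DESeq2 called 0 over the 3 pairs, with 18 under an unadjusted 0.05. Leaving out the KO mix pair gave 30.

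Cells with Cldn16 and cells with Cldn10 were then compared, since both claudins are known to occupy separate junctions of the segment. LOH cells were put into a Cldn16 class (at least 1 UMI of Cldn16 and none of Cldn10, 109 cells), a Cldn10 class (the reverse, 868 cells), cells with both (228) and cells with neither (179). A Cldn16 UMI was found in 24.3% of LOH cells (median 2604.5 UMIs), against 0.181% of DCT cells (median 2929 UMIs) and at most 2.27% of any other type. Cldn10 was found in 79.2% of LOH cells and in 10.8% of DCT cells, but also in 68.9% of PT_s cells. The classes are ranges of sparse counts and not cell types: 1 UMI moves a cell from one to another, and the median cell with both claudins was deeper (8953, 11435 and 3001 UMIs in KO female, KO male and KO mix and 10499 and 2451 in WT female and WT mix) than the median cell of the Cldn16 class (3941, 3160 and 2630 in KO and 3064 and 1978 in WT) or of the Cldn10 class (3448, 2747 and 2557 in KO and 2558 and 2154 in WT).

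**Figure D4:**
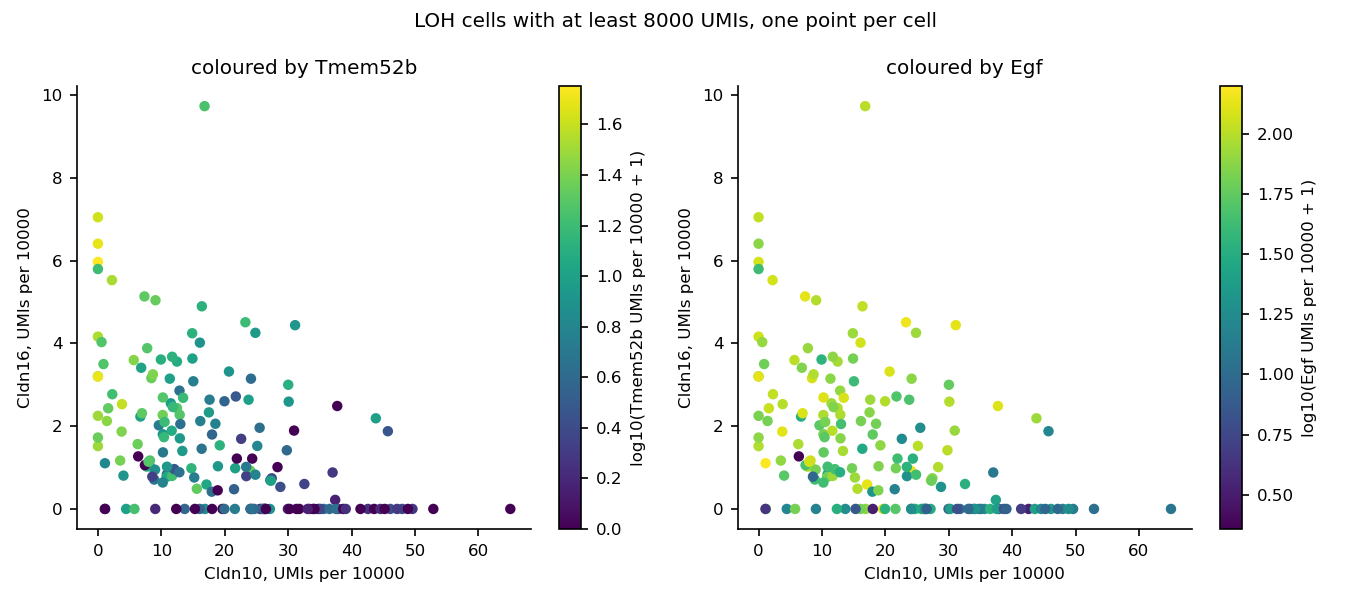
LOH cells of at least 8000 UMIs, 1 point per cell, with Cldn10 on the x axis and Cldn16 on the y axis as UMIs per 10000, coloured by Tmem52b (left) or Egf (right) as log10 of UMIs per 10000 plus 1. Cells high in Cldn16 and low in Cldn10 carry the most Tmem52b and Egf, with a continuous spread between the ends.

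In the 175 LOH cells with at least 8000 UMIs, of which 55 came from KO female, 63 from KO male, 1 from KO mix, 56 from WT female and 0 from WT mix, both claudins were inversely related (Spearman rho -0.53 across cells, given as a description, since cells of a library share its RNA pool and depth). Cldn10 was related to Tmem52b at -0.69 and Cldn16 at 0.70, Cldn16 to Egf at 0.69 and to Wnk1 at 0.64, and Cldn10 to Ptger3 at 0.46, while Cldn10 and the housekeeping gene Actb gave -0.08. Of 168 such cells with at least 5 claudin UMIs, 98 had under 10% of them from Cldn16, 6 had over 90%, and 64 lay between.

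Levels of both classes were compared in the 3 libraries with at least 20 cells in each class, KO female (22 and 113 cells), KO mix (25 and 320) and WT female (30 and 132), with library as a block and without the claudins that defined the classes. Of 4890 genes, 343 passed in edgeR (7.01%), 135 higher (2.76%) and 208 lower (4.25%) in the Cldn16 class, and 322 of the 343 went the same way in each library, as did 35.6% of all genes. DESeq2 called 104, 52 in each direction. Of 12 tested LOH markers 4 rose, among them Egf, Bsnd and Ppp1r1a (0.37), and 2 fell, Ptger3 and Wfdc15b (-0.42), with a median of 0.29, against 2 and 1 under DESeq2 and 1 and 1 without WT female. With all 5 libraries 2 rose and 2 fell. The calls of Bsnd and Ppp1r1a were lost under DESeq2, at a threshold of 0.01, without WT female and with all 5 libraries. Umod, Slc12a1, Kcnj1 and Cldn19 did not pass: Umod was at 13561, 14638 and 13069 CPM in the Cldn16 class and 9363, 11732 and 11698 CPM in the Cldn10 class (log2 fold change 0.21, SE 0.12), and Slc12a1 had a log2 fold change of -0.01 (SE 0.12), Kcnj1 of -0.23 (SE 0.13) and Cldn19 of 0.09 (SE 0.21).

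The gene of lowest p was Tmem52b, which encodes a membrane protein, with 3348, 1035 and 3450.4 CPM in the Cldn16 class of KO female, KO mix and WT female, against 117, 43.0 and 153 CPM in the Cldn10 class (log2 fold change 4.52, SE 0.14, edgeR adjusted p = 1.73e-129). Carbonic anhydrase Car15 had 4902, 2373 and 4952 CPM in the Cldn16 class and 480.5, 172 and 703 CPM in the Cldn10 class (log2 fold change 3.13, SE 0.12). Neither gene overlapped between the classes. Wnk1, a kinase that controls the sodium chloride cotransporters, had 3292, 2039 and 4381 CPM in the Cldn16 class, against 389, 249.7 and 548 CPM in the Cldn10 class (log2 fold change 2.91, SE 0.12). Its values in the classes did not overlap either. Egf had 10197, 9716 and 10928 CPM in the Cldn16 class, against 2545, 3439.5 and 3585 CPM in the Cldn10 class (log2 fold change 1.57, SE 0.12, edgeR adjusted p = 8.69e-32). Egf was thus higher in the Cldn16 class in each of the 3 libraries. Foxq1, a forkhead factor (3.70, SE 0.33), Greb1 (4.39, SE 0.51), the calcium buffer Pvalb (3.35, SE 0.28), the parathyroid hormone receptor Pth1r (2.35, SE 0.20), the vitamin D receptor Vdr (1.39, SE 0.30), Klk1 (1.92, SE 0.12), Wfdc2 (1.43, SE 0.11) and the iron exporter Slc40a1 (1.45, SE 0.44) rose as well. The call of Slc40a1 was lost at a threshold of 0.01, with no filter on low counts and without KO female or WT female. That of Vdr was lost without WT female, and that of Klk1 under limma-voom.

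Ptger3 had 24.0, 31.9 and 37.2 CPM in the Cldn16 class of KO female, KO mix and WT female, against 259, 387 and 360.2 CPM in the Cldn10 class (log2 fold change -3.50, SE 0.31, edgeR adjusted p = 1.18e-24). Fxyd2 was at 3388, 2676 and 3072 CPM in the Cldn16 class and 12069.9, 8264 and 10543 CPM in the Cldn10 class (log2 fold change -1.88, SE 0.13). The potassium channels Kcnj10 (1.86) and Kcnj16 (0.87) and the channel subunit Bsnd (0.95, SE 0.30) rose. Bsnd did not go that way in KO female, and its call was lost in the settings given above.

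Transcription factors of the nephron gave 2 higher, Tfcp2l1 (1.24, SE 0.17) and Mecom (0.92, SE 0.18), and 4 lower of 15 (median -0.50 beside -0.04 over all genes). Over all genes 2.76% were called higher and 4.25% lower. Irx1 had 8.01, 0 and 0 CPM in the Cldn16 class of KO female, KO mix and WT female, against 92.9, 157 and 99.6 CPM in the Cldn10 class (log2 fold change -5.19, SE 0.68, edgeR adjusted p = 1.88e-11). Irx2 (-3.30, SE 0.70), Sim2 (-1.73) and Esrrg (-1.71) were the others that fell. Another 6 genes had no UMI in the Cldn16 sums of these 3 libraries, with a floor of 3 counts over the group: Pla2g7 was at least 7.53-fold lower, Elovl6 at least 6.66-fold, Spag5 at least 6.54-fold, Map1b at least 5.44-fold, Gm6878 at least 3.82-fold and the betaine carrier Slc6a12 at least 3.59-fold. Stmn1, Esam and Anxa2 were at 8.01 CPM or less in the Cldn16 sums of the 3 libraries and at 58.1 CPM or more in their Cldn10 sums.

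Over all genes 2.76% were called higher and 4.25% lower in the Cldn16 class. By list, 6 of 11 secreted proteins rose and 1 fell (median 0.68), and 5 of 19 genes of salt transport rose and 3 fell (median -0.09). Of 36 genes of energy metabolism 0 rose and 4 fell, creatine kinase Ckb (-1.97, SE 0.15), phosphofructokinase Pfkl (-1.63, SE 0.38), lactate dehydrogenase Ldha (-1.13, SE 0.23) and hexokinase Hk1 (-1.07, SE 0.27). Of 13 mitochondrially encoded genes 12 fell and 0 rose (median -0.63), and of 80 nuclear genes of the respiratory chain 9 fell and 0 rose (median -0.13). These counts rested on WT female: without it 0 of the mitochondrially encoded genes, 0 of the nuclear ones and 1 of the energy genes fell. DESeq2 called 8, 2 and 1 lower, and the calls of Pfkl, Ldha and Hk1 were lost under DESeq2. The median mitochondrial share was 10.0%, 33.4% and 12.1% in the Cldn16 class of the 3 libraries, against 17.0%, 38.3% and 17.6% in the Cldn10 class. Red blood cell genes also fell, Hbb-bs by 1.89 on the log2 scale (SE 0.14). Their part in the other lists was not tested. Of 12 proximal tubule markers 1 fell, Miox, though not in KO mix. With all 5 libraries 6 of 12 fell and 0 rose. These markers summed to 713, 2200 and 801 CPM in the Cldn16 class of KO female, KO male and WT female, against 2417, 5492 and 1746 CPM in the Cldn10 class. In KO mix and WT mix the Cldn16 class had the higher sum (7709 and 8299 CPM, against 6943 and 7516 CPM). Cldn10 is also found in proximal tubule cells, and the part of that RNA in the split was not tested. In all 5 libraries, the 2 smaller pairs included, 437 of 5616 genes passed (7.78%, 156 higher or 2.78% and 281 lower or 5.0%, with 14.1% of genes the same way in every library), and 301 genes were called in both fits, 87.8% of the 343 and 68.9% of the 437. Leaving out WT female left 43 calls, 27 higher and 16 lower, and leaving out KO female left 197.

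Since Wnk1 and Pvalb are also strong in DCT cells, the defining genes of that segment were read in the class. Slc12a3 was at 8.01, 15.9, 24.8 and 0 CPM in the Cldn16 class of KO female, KO mix, WT female and WT mix, and at 698 CPM in KO male, where 63 of 65 UMIs lay in 1 of 19 cells, against 3642 to 6851 CPM in DCT cells. Calb1 was at 0 to 31.0 CPM in the Cldn16 class (at 0 in 3 of the 5 libraries), against 2929 to 5317 CPM in DCT cells, and Slc8a1 at 0 to 10.7 CPM, against 1207 to 2165 CPM. Car15 was at 2373 CPM or more in the Cldn16 class and at 113 CPM or less in DCT cells. Without the cells that had an Slc12a3 UMI, 405 genes passed over the 5 libraries, 156 higher and 249 lower. The 10 macula densa genes summed to 72.1, 53.7 and 47.8 CPM in the Cldn16 class of KO female, KO male and KO mix, against 22.4, 3.63 and 20.9 CPM in the Cldn10 class, and to 49.6 and 0 CPM in the Cldn16 class of WT female and WT mix, against 93.9 and 53.4 CPM in the Cldn10 class. Of these, Nos1, Ptgs2 and Pappa2 had no UMI in the Cldn16 class of any library, and Slc9a2, the 1 gene of the list tested, had 40.1, 31.9 and 49.6 CPM in the Cldn16 class of KO female, KO mix and WT female, against 11.2, 13.9 and 19.2 CPM in the Cldn10 class (log2 fold change 1.34, SE 0.56, edgeR adjusted p = 0.156).

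**Figure D5:**
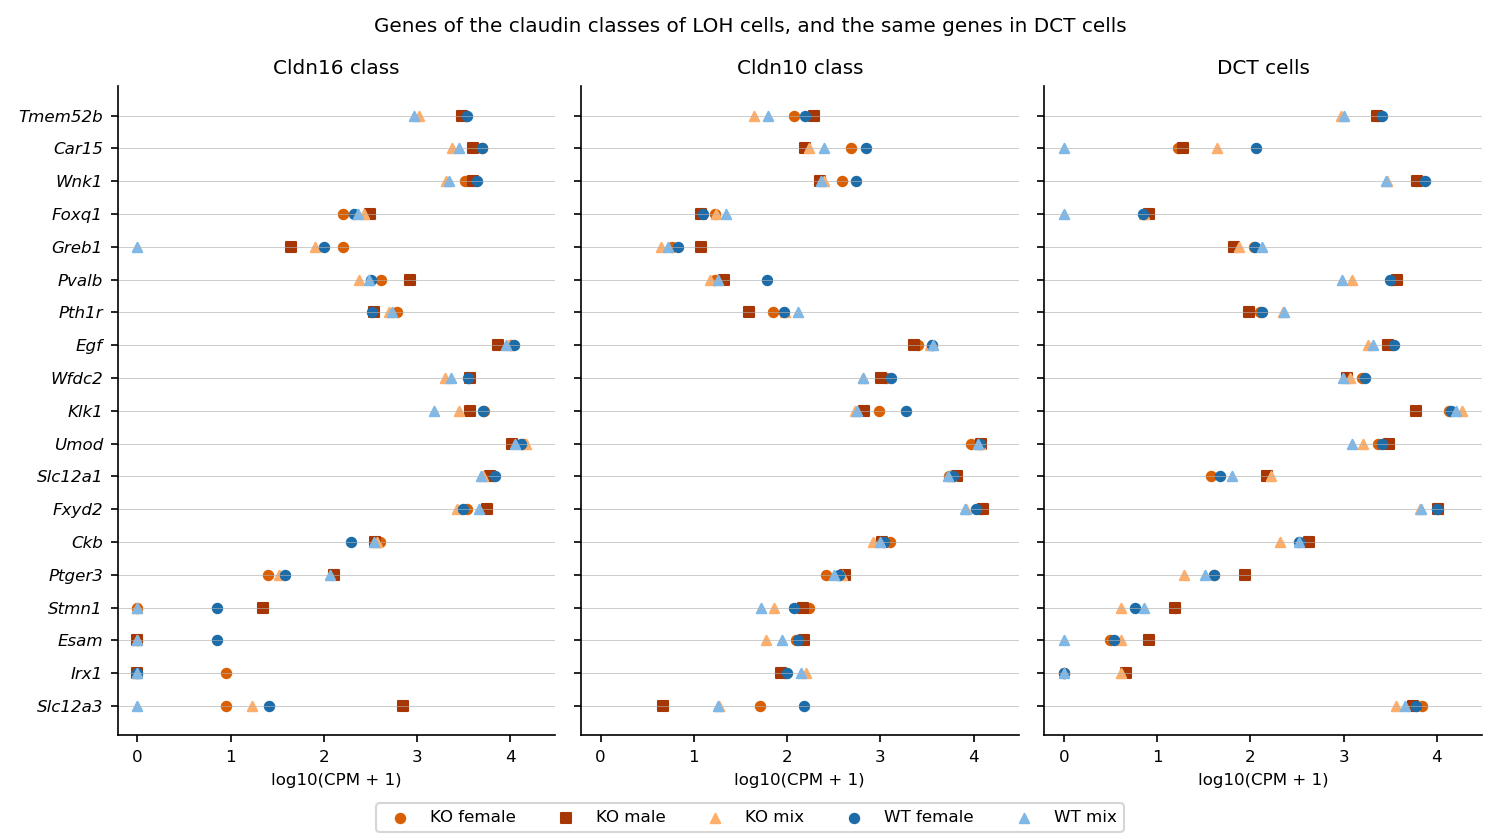
Levels, as log10(CPM + 1), of 19 genes in the Cldn16 class (left), the Cldn10 class (middle) and DCT cells (right), 1 point per library, KO in orange and WT in blue. Tmem52b and Wnk1 are high in the Cldn16 class and in DCT cells, Car15 and Foxq1 are high in the Cldn16 class alone of the 3, and Slc12a3 is high in DCT cells, with 1 library of the Cldn16 class (KO male, 698 CPM) apart.

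The balance of the classes differed between genotypes by less than the spread of the libraries. The Cldn16 class made 16.3%, 15.7% and 7.25% of the cells with a UMI of only 1 of the claudins in KO female, KO male and KO mix, against 18.5% and 6.07% in WT female and WT mix. The mean was 13.1 ± 5.06% in KO and 12.3 ± 8.80% in WT (SD, n = 3 and 2; difference 0.785 points, two-sided exact permutation p = 0.9, smallest possible 0.1). With every cell thinned to 1000 UMIs the shares were 9.40%, 8.82% and 6.23% in KO and 12.0% and 6.86% in WT (difference -1.30 points, exact permutation p = 0.7). The mixed libraries had the lower share in both genotypes with and without thinning. Thinning was to total UMIs, whose mitochondrial share was higher in the mixed libraries, so that depth in other RNA was not made equal. The thinned Cldn16 class held 18 and 12 cells in KO mix and WT mix, against 14, 12 and 20 in KO female, KO male and WT female.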

How the data were processed

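Cells of whole kidneys from FVB/Ant mice were captured on the 10x Genomics platform, and per the labels the authors deposited UMI counts per gene and cell from Cell Ranger 4.0.0 with the mm10 reference, after their own filters on cells and genes and with Scrublet doublet scores, and annotated cells with Seurat 3.2.2.9001. The deposited annotation supplied cell types and libraries, its mitochondrial percent per cell was read as the authors give it, and its doublet score was used only as an alternative filter. A total of 3 annotation columns and the embedding were not used. LOH counts were summed per library (616151 to 1650429 UMIs), since cells are not replicates. The authors compared cells by a rank test, whereas here libraries were the unit, which leaves 3 against 2.

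Sums of at least 20 cells were fitted with the edgeR 4.0.16 quasi-likelihood test in R 4.3.3, with TMM scaling and the edgeR filter on low counts (minimum 10), and p-values were adjusted over all tested genes by Benjamini and Hochberg at 0.05. DESeq2 1.42.0 and limma 3.58.1 (voom), other filters on genes and cells, blocks by run or sex composition and leaving out each library were alternatives. Mixed and single-sex libraries were compared with genotype as a covariate, claudin classes with library as a block, and sexes with the pair as a block, which is 1 library in the mixed pairs and 2 in the single-sex KO pair. Levels are CPM of the sums, fold changes are log2 and detection shares are percent of cells. Exact permutation tests used scipy 1.17.1. Fits were tested on simulated data. The genes named were drawn from set groups, of which not every member is printed. Genes with some of the largest fold changes between kinds of library and between claudin classes are therefore missing. Per test, the groups were the 10 highest and 10 lowest fold changes past the threshold that went the same way throughout, or the 5 of lowest p in each direction where fewer than 5 passed. The others were the 20 genes of highest level and of highest ratio to the next type, list markers, up to 4 list members of lowest p, Fame, Fth1, Slc25a39, Fabp4 and Keg1. Further list members that passed a test, and Calb1, Slc8a1 and Sfrp1, were picked after their values were seen. Members and lists were chosen with earlier results of these data known. Counting strand, the number of mice per library and doublets removed before deposit are not given in the sources used here.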

Additional observations from a re-analysis of the deposited data

How the results depend on the processing

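KO against WT stayed at 0 calls under DESeq2, limma-voom, every filter on genes or cells, the threshold of 0.01 and each library left out, and gave 2 calls with the run block, 2 with it under limma-voom, 13 with the sex composition block, and 0 to 16 with the run block and 1 library left out. Mixed against single-sex libraries gave 849 calls under DESeq2, 735 in cells of at most 25% mitochondrial UMIs, 1355 at 0.01 and 1078 to 2333 with 1 library left out, beside 2155. Male against female gave 0 calls under DESeq2, 21 with no filter on low counts, 3 in cells of at least 2000 UMIs, 6 at 0.01, 0 in the mixed libraries alone, 20 with 2 or more Xist UMIs and 0 to 30 with 1 pair left out, beside 13. The claudin classes gave 104 calls under DESeq2, which set 2181 adjusted p-values to missing, 153 with at least 10 counts in every sum (660 genes tested) and 43 to 369 with 1 library left out, beside 343, and the share of calls that were higher was 50% under DESeq2, 56.2% under limma-voom, 51.6% with at least 10 counts and 26.7% with no filter, beside 39.4%. The difference of the KO effect between LOH and DCT cells gave 4 calls with no filter, 5 in cells of at most 25% mitochondrial UMIs and 0 to 6 with 1 library left out. The difference in the share of LOH cells ran from -0.0497 to 2.41 points with 1 library left out. That of the Cldn16 class was -0.233 with 2 or more UMIs, -1.30 with cells thinned to 1000 UMIs and -5.44 to 7.01 with 1 library left out. Reversed single genes were Cd74 (-6.31) and Pax8 (-0.25) between mixed and single-sex libraries in cells of at most 25% mitochondrial UMIs, Hba-a1 between sexes under DESeq2 (0.65) and Slc12a3 between the classes with all 5 libraries (1.10), where 1 cell of KO male holds 63 of 65 UMIs. For the others the cause was not tested. Of the fits of called named genes under alternatives, 957 of 1101 between kinds of library, 78 of 119 between sexes and 609 of 699 between classes kept the call and the direction. The filter at 25% mitochondrial UMIs could not be run for the sexes, nor the filter at 2000 UMIs and the 2-UMI classes for the claudin comparison, since under 2 pairs kept 20 cells in each sum. The labels give the libraries no shared replicate numbers, so that blocks were by run or sex composition. The alternatives without mitochondrially encoded genes, with the run block under other tools, and with all 5 libraries in the claudin comparison were chosen after seeing the data.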

Other observations

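Of 16 hormone receptors and their partners 4 rose and 2 fell in the mixed against the single-sex libraries, beside 11.7% higher and 12.4% lower over all genes, and DESeq2 called 1 in each direction. Among those that rose were Hsd11b2 (log2 fold change 2.24), which protects the mineralocorticoid receptor from glucocorticoids, the glucagon receptor Gcgr (0.93) and the G protein subunit Gnas (0.39), and Vdr (-0.86) and Casr (-0.58) fell, with a median of 0.12 over the list. The call of Casr was lost under DESeq2, under limma-voom and without any 1 of the libraries other than KO male, and that of Hsd11b2 at a threshold of 0.01 and without the same libraries. Hsd11b2 is also a principal cell marker, and the 5 principal cell markers summed to 45.3 and 84.4 CPM in KO mix and WT mix, against 7.27, 15.6 and 5.04 CPM in KO female, KO male and WT female. In the Cldn16 class 2 of 11 receptors rose against the Cldn10 class, Pth1r and Vdr, and 1 fell, Ptger3 (median 0.36 beside -0.04 over all genes). Over all genes 2.76% were called higher and 4.25% lower in that comparison.

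Of 12 antigen presentation and interferon genes 3 rose in the mixed libraries, among them B2m (0.63, SE 0.17) and Ly6e (0.95, SE 0.22), and H2-T23 fell (-0.89, SE 0.29), beside the same shares over all genes. DESeq2 called 1 higher and 0 lower, and the calls of B2m, Ly6e and H2-T23 were lost there and without WT female or WT mix. Injury genes gave 2 higher of 12, Krt8 (0.58) and Igfbp7 (0.56), and 2 lower, Lcn2 and Spp1, near the shares over all genes. Krt8 had 51.4 and 87.6 CPM in KO mix and WT mix, against 40.6, 45.3 and 55.4 CPM in KO female, KO male and WT female, so that the kinds of library overlapped, and its call was lost under DESeq2 and without any 1 of the libraries other than KO male. In the Cldn16 class 4 of 36 immediate early and heat shock genes fell against the Cldn10 class, Fos (-0.99, SE 0.22), Dusp1 (-2.21, SE 0.55), Hspa1b (-1.81, SE 0.57) and Gadd45g (-0.54, SE 0.15), and Ier3 rose (1.67, SE 0.26). Over all genes 4.25% were called lower and 2.76% higher in that comparison. The calls of Fos, Dusp1 and Gadd45g were lost under DESeq2 and without WT female.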
